A study of Mus musculus with 6 samples.

Results

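The extracellular proteases and inhibitors of the mouse lung were examined in a model of primary blast lung injury (PBLI), the damage that a pressure wave does to the lung without penetration or burn. The genes were those of the matrix metalloproteinases (Mmp), the ADAMTS proteases (Adamts) and the tissue inhibitors of metalloproteinases (Timp), taken by their symbols from the mRNA table. They numbered 46 of 22564 protein-coding genes, with 23 Mmp, 19 Adamts and 4 Timp genes. ADAMTS-like genes, whose products have no protease domain, were not among them.

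Matrix metalloproteinases are zinc enzymes that cut collagens, elastin and basement membrane proteins, and most are released as inactive proenzymes. ADAMTS enzymes cut proteoglycans, trim procollagens or act on microfibrils and von Willebrand factor. TIMP proteins bind these enzymes and block them, and in the injured lung the balance of the 3 families sets how fast matrix is taken down.

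The control group consisted of male C57BL/6 mice, aged 8 to 10 weeks. They were anesthetized like the PBLI group but not exposed to a blast. The PBLI group consisted of mice of the same strain, sex and age whose chest received a blast wave of 0.5 bar, and lungs were taken at 6 h. Each group had 3 libraries, and each library was made from pieces of the right upper lobe of 2 mice, pooled before sequencing. The libraries are called Control 1 to 3 and PBLI G3, G4 and G5 here, the latter after their column names, which give the group but no sample number.

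Read counts of the mRNAs were not used here, but ratios of low FPKM values (fragments per kilobase of transcript, scaled to the depth of the library) gave the depth of the libraries relative to Control 1. It was 0.995 and 1.15 in the other control libraries and from 1.24 to 1.605 among the PBLI libraries, highest in PBLI G5, so the PBLI libraries were the deeper ones. Lung identity was clear in every library, with the surfactant gene Sftpc between 6870 and 9849 FPKM. Of the alveolar type 1, alveolar type 2 and endothelial marker genes, 15 in all, none was listed at 0 in all libraries. Because pieces of lung with all their cell types were sequenced, a smaller number of cells of a type and less RNA per cell cannot be told apart in any result given here.

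Of the 46 genes, 34 reached 0.5 FPKM in at least 1 library and were tested, 31 of them through both groups, 2 through the control group only (Mmp13 and Mmp17) and 1 through the PBLI group only (Mmp25). The other 12 were not tested. Mmp1a, Mmp1b, Mmp7, Mmp20 and Adamts16 were listed at 0 in all 6 libraries. Mmp10, Mmp21, Mmp24, Mmp27, Adamts13, Adamts18 and Adamts19 stayed low, with highest values from 0.0497 FPKM for Mmp21 to 0.434 FPKM for Mmp27. Adamts13, which cleaves von Willebrand factor and is made mainly in the liver, read 0.0927, 0.0621 and 0 FPKM in the controls and 0.0937, 0.0746 and 0.115 FPKM in the PBLI libraries.

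Only 2 of these genes passed the test after adjustment, limma on log2(FPKM + 0.5) with Benjamini-Hochberg adjustment over 14760 genes. The neutrophil collagenase Mmp8 and the matrix-bound inhibitor Timp3 were higher in the PBLI group (2 of 34 tested members, against 1.15% of all tested genes called higher). No member was called lower by limma at this threshold (0 of 34, against 0.928% of all tested genes), while 7 members had an unadjusted p under 0.05 in that direction (10% of all tested genes) and 4 had one in the upward direction (9.15% of all tested genes). By the study's own thresholds, a fold change of at least 2 with an unadjusted p of at most 0.05, Mmp3, Mmp8 and Timp1 were higher (1.38% of all tested genes) and Adamts17 was lower (1.17% of all tested genes) when the fold was taken on the log2(FPKM + 0.5) scale with the p from limma. With the fold as the ratio of mean FPKM and the same p, the higher members were again these 3 (2.01% of all tested genes), and the lower ones were 5, Adamts6, Adamts12, Adamts17, Adamts20 and Mmp12 (2.44% of all tested genes). The median log2 fold change was −0.23 over the 15 tested Mmp genes, −0.33 over the 15 tested Adamts genes and 0.42 over the 4 Timp genes, beside −0.02 over all tested genes. Values below 0 were found for 22 of the 34 members, against 52.9% of all tested genes.

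**Figure D1:**
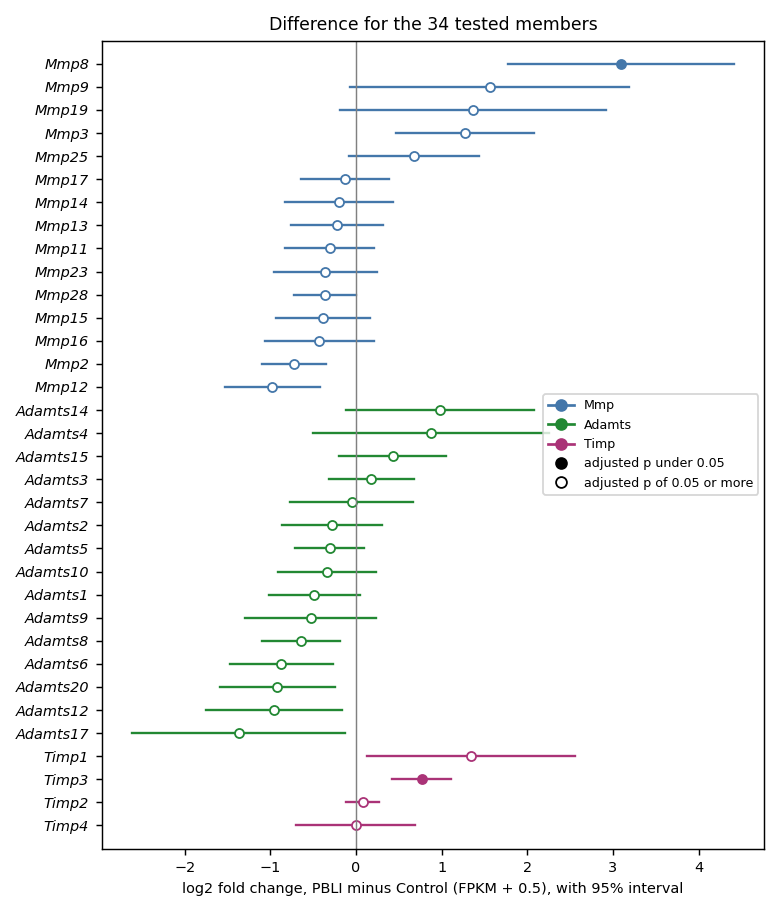
Log2 fold change of each tested member, PBLI minus Control on the log2(FPKM + 0.5) scale (horizontal axis), with its 95% interval from limma; one line per gene, grouped as Mmp, Adamts and Timp. Filled points mark an adjusted p under 0.05, which only Mmp8 (3.09) and Timp3 (0.77) have; most Adamts points lie left of 0.

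Among the collagenases, which make the first cut in fibrillar collagen, Mmp8 stood at 1.31, 1.09 and 2.07 FPKM in the controls and at 31.9, 22.5 and 5.65 FPKM in the PBLI libraries (in the order G3, G4, G5, as throughout). Every PBLI library lay above every control library, and PBLI G5 was closer to the controls than to the other PBLI libraries. The mean was 13.5 times that of the controls (1.49 ± 0.515 against 20.0 ± 13.3 FPKM, SD, n = 3), and the log2 fold change was 3.09 ± 0.57 (SE, adjusted p = 0.0418). The call was lost without Control 1 (adjusted p = 0.141), Control 2 (0.195), Control 3 (0.0887), PBLI G3 (0.121) or PBLI G4 (0.101), and without PBLI G5 it was kept with a log2 fold change of 3.81 (adjusted p = 0.00261). Mmp13, the other tested collagenase, was at or below 0.617 FPKM in every library, with a log2 fold change of −0.23 ± 0.23 that was −0.12 without PBLI G4 and −0.09 with quantile normalization.

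The gelatinases, which cut denatured collagen and basement membrane collagen, went apart from each other. Mmp9 read 4.64, 4.32 and 2.18 FPKM in the controls against 21.9, 21.6 and 2.94 FPKM after blast. PBLI G3 and G4 were far above the controls and PBLI G5 was inside their range, so the groups overlapped. The log2 fold change of 1.56 ± 0.70 did not pass (adjusted p = 0.275), whereas without PBLI G5 it was 2.46 (adjusted p = 0.0124). With any other library left out it did not pass (limma adjusted p from 0.374 without Control 1 to 0.491 without PBLI G3). Mmp2 had the highest mean over the 6 libraries in the Mmp family, although Mmp19 was above it in PBLI G5. It was at 61.4, 51.5 and 40.9 FPKM in the controls and 31.9, 33.2 and 26.5 FPKM after blast. All 3 PBLI values lay below all 3 control values, with a mean 0.596 times that of the controls and a log2 fold change of −0.72 ± 0.16 (limma, unadjusted p = 0.00227, adjusted p = 0.0731).

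The membrane-type enzyme Mmp25, known from neutrophils, followed the library order of Mmp8 and Mmp9 at low level. It was 0.223, 0.192 and 0.221 FPKM in the controls and 1.06, 0.822 and 0.218 FPKM in the PBLI libraries. PBLI G3 and G4 were the high libraries and PBLI G5 was within the control range, and the difference did not pass (log2 fold change 0.68 ± 0.33, adjusted p = 0.299). PBLI G5 was at least 2-fold below both other PBLI libraries (on FPKM + 0.5) for Mmp8 and Mmp9 among the members, a relation found for 2.03% of all tested genes. This cut and its reverse, used below, were not among the planned comparisons.

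Neutrophil marker genes other than Ly6g were highest in PBLI G3 and G4 too, with PBLI G5 the lowest of its group. S100a8, a calcium-binding protein of neutrophil cytosol, read 135, 93.6 and 133 FPKM in the controls and 1115, 1011 and 186 FPKM after blast. Summed over the 8 neutrophil markers the level was 165 to 275 FPKM in the controls and 2222, 1909.5 and 366 FPKM in the PBLI libraries, and the chemokine receptor Cxcr2 and the granulocyte receptor Csf3r had their lowest PBLI value in G5 as well. Of these 8 genes, 1 was called higher (Il1r2, the decoy receptor of interleukin 1, log2 fold change 2.88, limma adjusted p = 0.0166), 7 had an unadjusted p under 0.05 and a higher value, and Ly6g was at 0 except in PBLI G3. Genes of neutrophil precursors (Camp, Ltf, Ngp, Mpo, Elane, Prtn3) had no call among 5 tested, with sums of 7.97 to 33.6 FPKM in the controls and 15.5 to 17.7 FPKM after blast. The part of these cells in the Mmp8, Mmp9 and Mmp25 values was not tested.

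**Figure D2:**
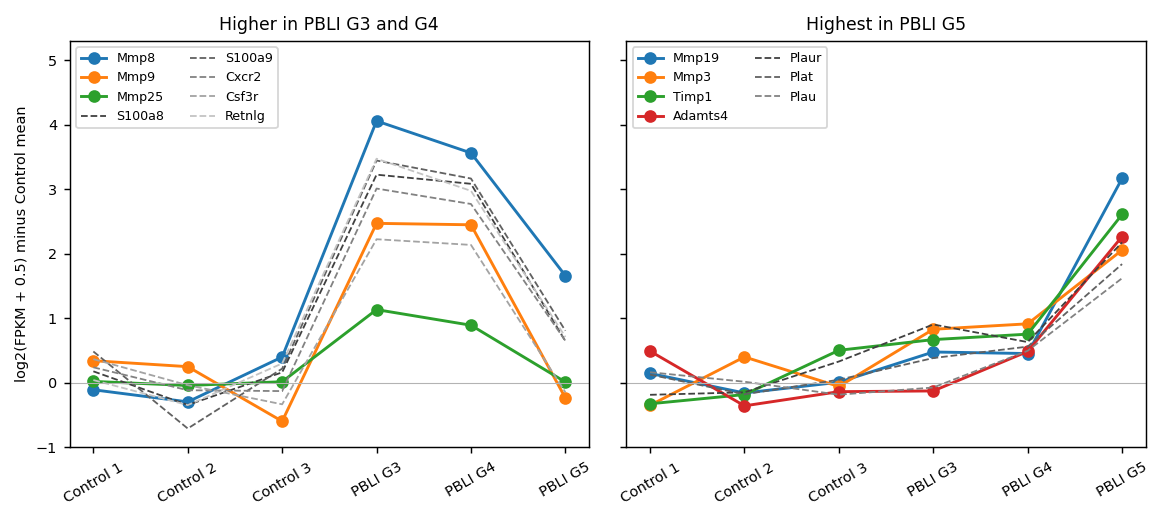
Level of each gene in each library as log2(FPKM + 0.5) minus the mean of the 3 control libraries (vertical axis), with the 6 libraries on the horizontal axis. Left, Mmp8, Mmp9 and Mmp25 (points) with neutrophil markers (dashed), which are high in PBLI G3 and G4 and lower in G5. Right, Mmp19, Mmp3, Timp1 and Adamts4 (points), the members at least 2-fold higher in PBLI G5 than in both other PBLI libraries (on FPKM + 0.5). The dashed lines at the right are Plaur, Plat and Plau of the plasminogen system, chosen after their values were seen and highest in PBLI G5 too. Lines only join the values of one gene.

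A second group of members was at least 2-fold higher in PBLI G5 than in both other PBLI libraries (on FPKM + 0.5). Being highest there was not particular to this group. Timp2, Timp3, Timp4, Adamts3, Adamts14 and Adamts15 also had their highest value in PBLI G5, without reaching that cut. In the same library Mmp8 and Mmp9 were lowest within the PBLI group. Both patterns rest on this 1 library, which departed from its group over all tested genes too. Its sample weight from limma, which is low for such a library, was 0.280, beside 2.44 in PBLI G3 and 1.31 in PBLI G4. Mmp3 (stromelysin-1), which cuts proteoglycans and activates other proenzymes, read 4.34, 7.63 and 5.42 FPKM in the controls and 10.4, 11.1 and 25.1 FPKM after blast. The groups did not overlap. Its log2 fold change was 1.27 ± 0.35 (adjusted p = 0.118) and 0.87 without PBLI G5 (adjusted p = 0.0965).

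Mmp19, an enzyme of basement membrane proteins, was even more uneven. It was 7.18, 5.73 and 6.49 FPKM in the controls, 9.17 and 9.01 FPKM in PBLI G3 and G4, and 61.8 FPKM in PBLI G5. All PBLI values were above the controls, but the spread in the PBLI group (SD 30.5 FPKM) was larger than its mean of 26.7 FPKM. The log2 fold change of 1.37 ± 0.67 did not pass (adjusted p = 0.307), and it was 0.47 without PBLI G5 (adjusted p = 0.132).

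Timp1, the inducible inhibitor of the family, read 1.16, 1.33 and 2.44 FPKM in the controls and 2.80, 2.995 and 12.1 FPKM after blast. All PBLI values were above the controls, though Control 3 was close to PBLI G3 and G4. Its log2 fold change was 1.34 ± 0.52 (adjusted p = 0.223) and 0.71 without PBLI G5 (adjusted p = 0.240). The aggrecanase Adamts4 was 0.530, 0.0727 and 0.167 FPKM in the controls and 0.172, 0.527 and 3.03 FPKM in the PBLI libraries, so that only PBLI G5 was outside the control range. These 4 genes, Mmp3, Mmp19, Timp1 and Adamts4, were at least 2-fold higher in PBLI G5 than in both other PBLI libraries, as were 1.67% of all tested genes.

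Activators of the plasminogen system, which in turn activates several Mmp proenzymes, were looked at beside this group after their values had been seen. Plaur, the urokinase receptor, was 10.5, 10.8 and 15.3 FPKM in the controls and 22.98, 18.9 and 56.2 FPKM after blast. Plasminogen itself (Plg) was at or below 0.0793 FPKM in every library and was not tested. Of the 13 listed activators of metalloproteinases 9 were tested and none was called by limma after adjustment, while unadjusted p fell under 0.05 for 4 with higher and 1 with lower values. Bsg (basigin, an inducer of Mmp genes) had the highest mean over the 6 libraries in that list, although Lcn2 was above it in PBLI G5. It was at 155.7 to 170.0 FPKM in the controls and 148 to 156 FPKM after blast.

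The inhibitors accounted for much of the signal of the family. Timp3, which binds to the matrix and blocks Mmp, ADAM17 and ADAMTS enzymes, was the most abundant of the 46 genes, with 254, 266 and 362 FPKM in the controls and 484, 466 and 537 FPKM after blast. The groups did not overlap, Control 3 being the highest control library. The mean was 1.69 times that of the controls (294 ± 59.3 against 496 ± 36.6 FPKM, SD, n = 3), with a log2 fold change of 0.77 ± 0.15 (SE, adjusted p = 0.0487). This value lay just inside the threshold. The call was lost without Control 1 (adjusted p = 0.154), Control 2 (0.219), PBLI G3 (0.154), PBLI G4 (0.0916) or PBLI G5 (0.0671) and kept without Control 3 (0.0291).

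Timp2, which takes part in the activation of Mmp2 at the cell surface, was second in level at 106, 106 and 118 FPKM in the controls and 117, 112 and 119 FPKM after blast. The values interleaved, and the 95% interval of the log2 fold change ran from −0.11 to 0.27. Timp4 was low, with 0.421, 0.593 and 0.731 FPKM in the controls and 0.257, 0.615 and 0.951 FPKM in the PBLI libraries. Its log2 fold change was −0.01 (95% interval −0.70 to 0.69) and its sign turned with the scaling.

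Timp3 made up 33.8, 36.7 and 48.6% of the summed FPKM of all 46 genes in the controls and 54.3, 52.1 and 53.1% after blast. The 19 Adamts genes summed to 226, 201 and 147 FPKM in the controls and 127, 149 and 166 FPKM after blast, which overlapped, and the 23 Mmp genes to 164, 150.0 and 114 FPKM against 160.0, 163 and 177 FPKM, which overlapped too. Within the controls the Adamts sum was lowest and the Timp3 share highest in Control 3.

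**Figure D3:**
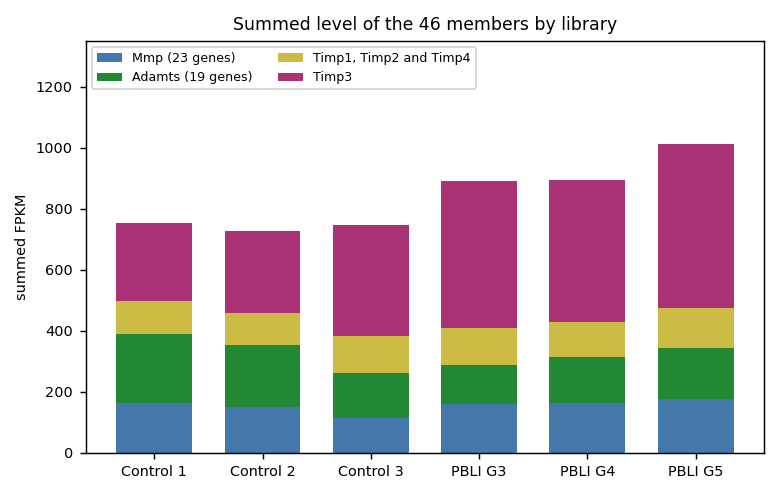
Summed FPKM (vertical axis, from 0) of the 46 genes in each of the 6 libraries, stacked as Mmp, Adamts, the Timp genes other than Timp3, and Timp3. Timp3 is the largest piece of every bar and reaches 466 to 537 FPKM in the PBLI libraries.

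Each of 3 Timp genes lies in a synapsin gene in the mouse genome, Timp1 in Syn1, Timp3 in Syn3 and Timp4 in Syn2. None of the host genes was called. Syn3 read 1.07, 2.38 and 1.898 FPKM in the controls and 1.05, 1.13 and 1.01 FPKM after blast (log2 fold change −0.50, adjusted p = 0.334), against the higher values of Timp3. Syn2 was 3.37 ± 0.943 FPKM in the controls and 1.15 ± 0.238 FPKM after blast (SD, n = 3; log2 fold change −1.21, adjusted p = 0.0556), and Syn1 was below 0.5 FPKM throughout. The 120 bases before the RefSeq start of Timp3 (GRCm38.p6, chr10:86300292-86300411, plus strand) are shown because it is one of the 2 called members. They are rich in G and C and hold none of the motifs searched below, and so carry no capitals. A match to AGGAAG, one of those motifs, lies outside the bases shown, from 204 bases before the start.
Timp3: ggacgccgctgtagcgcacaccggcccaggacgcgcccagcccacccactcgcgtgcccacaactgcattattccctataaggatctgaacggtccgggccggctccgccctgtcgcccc

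**Figure D4:**
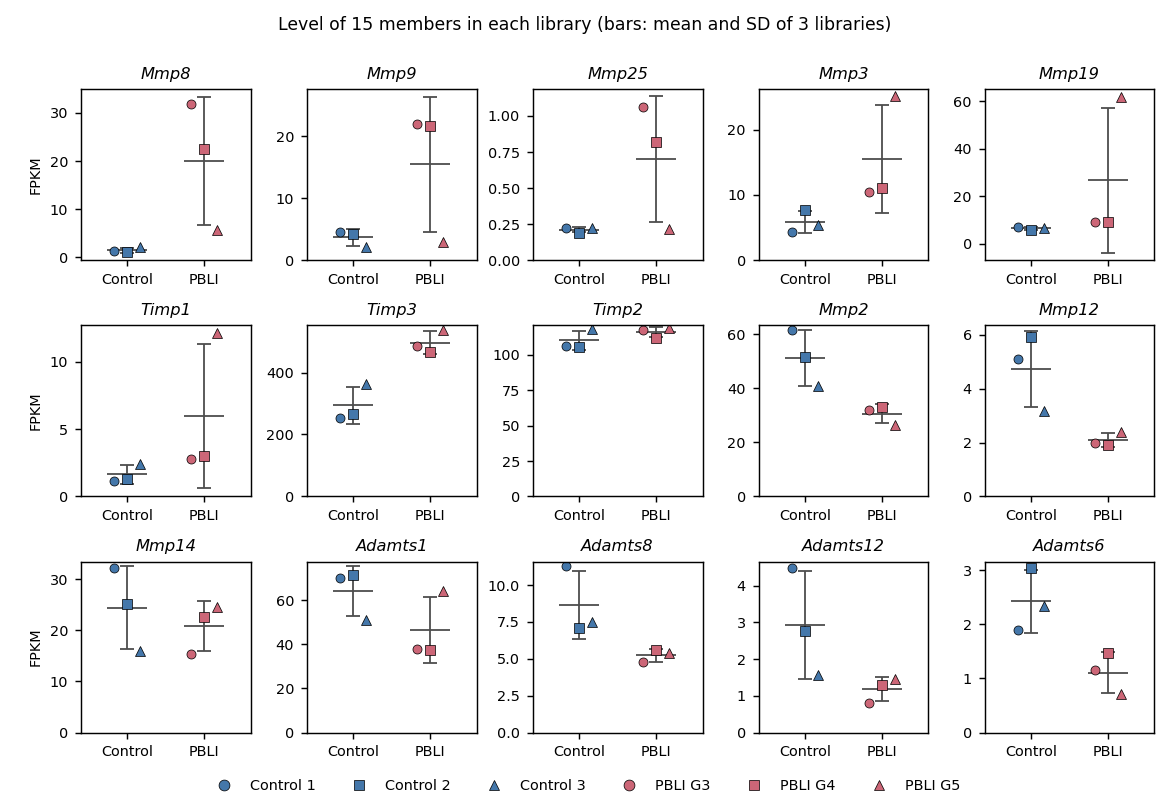
FPKM (vertical axis of each panel, from 0 or below) of 15 members in each library, Control at the left and PBLI at the right of each panel; horizontal marks and bars are the mean and SD of 3 libraries. Mmp8 and Mmp9 are lowest in PBLI G5 (triangle) within the PBLI group, whereas Mmp3, Mmp19 and Timp1 are highest there; Mmp2, Mmp12, Adamts8, Adamts12 and Adamts6 are below the controls in all PBLI libraries.

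A total of 10 Mmp genes stand side by side on chromosome 9 (GRCm38, chr9:7272514-7699585, 427 kb), and neighbours in this cluster differed in direction. In order they are Mmp13, Mmp12, Mmp1b, Mmp3, Mmp1a, Mmp10, Mmp8, Mmp27, Mmp20 and Mmp7, of which 4 were tested and 4 were listed at 0. Mmp12 (macrophage metalloelastase, chr9:7344381-7369499) read 5.10, 5.92 and 3.16 FPKM in the controls and 1.99, 1.902 and 2.39 FPKM after blast. All PBLI values were below the controls, with a mean 0.443 times theirs and a log2 fold change of −0.98 ± 0.24 (limma, unadjusted p = 0.00397, adjusted p = 0.0933). Mmp3 (chr9:7445822-7455975) and Mmp8 (chr9:7558456-7568485), farther along, were the ones with higher values, while Mmp10, between them, was above 0 only in PBLI G4, at 0.0543 FPKM.

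**Figure D5:**
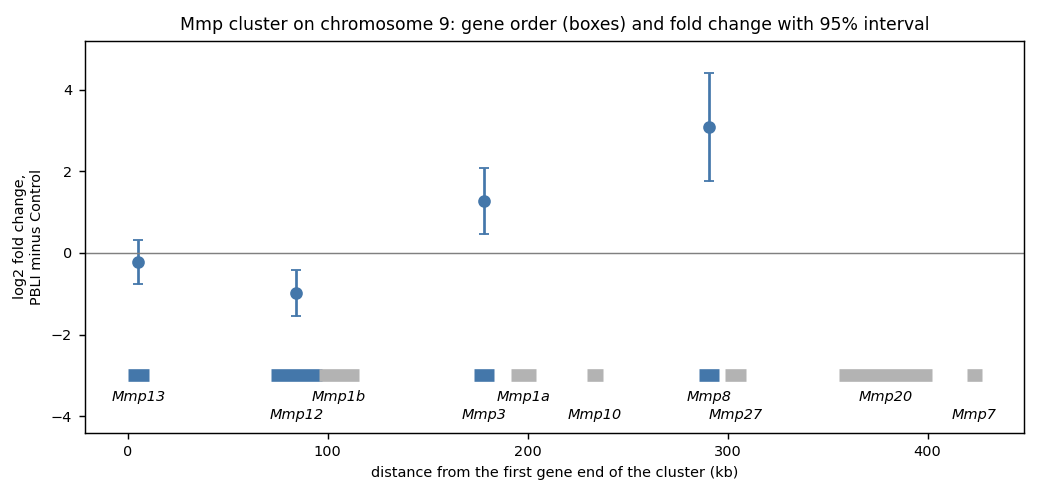
The Mmp cluster of chromosome 9, with distance from its first base in kb (horizontal axis), genes as boxes (blue tested, grey not tested) and the log2 fold change of the 4 tested genes with 95% intervals (vertical axis). Mmp12 lies below 0, and Mmp3 and Mmp8 lie above 0.

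The promoters of this cluster are shown because its genes share letters there that most other promoters lack. The motifs, 3 in number, were searched on both strands in the 250 bases before each RefSeq start (GRCm38.p6). They were TGANTCA for AP-1 sites, with any base at N, the PEA3 site AGGAAG and the TATA box TATAAA. The pattern TGANTCA reads the same on both strands. Of the 46 genes 32 had a promoter in the reference, 35 promoters in all. TGANTCA was in 8 of these 35 promoters against 6.75% of 32851 promoters of all genes, and all 8 belonged to genes of the cluster, 8 of 10 genes there against 0 of 22 outside it. The exceptions in the cluster were Mmp8 and Mmp27. The match was TGAATCA in Mmp20, and TGAGTCA or TGACTCA in the other genes with one. TATAAA was in 9 of 35 (12.4% of all promoters), in 7 of the 10 cluster genes, and AGGAAG in 14 of 35 (29.5% of all promoters). Genes of the cluster arose by duplication, so their shared letters are not separate observations. The 120 bases before the start of 5 of them follow, all on the plus strand of chromosome 9, with matches in capitals.
Mmp13 (chr9:7272394-7272513): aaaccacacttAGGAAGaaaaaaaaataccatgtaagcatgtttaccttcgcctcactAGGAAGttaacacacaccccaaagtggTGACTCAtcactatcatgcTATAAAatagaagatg
Mmp12 (chr9:7344277-7344396): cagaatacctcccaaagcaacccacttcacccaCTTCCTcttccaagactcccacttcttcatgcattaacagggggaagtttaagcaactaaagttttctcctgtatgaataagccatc
Mmp3 (chr9:7445702-7445821): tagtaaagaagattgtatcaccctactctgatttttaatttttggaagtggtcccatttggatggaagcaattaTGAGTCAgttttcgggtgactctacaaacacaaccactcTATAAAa
Mmp10 (chr9:7502222-7502341): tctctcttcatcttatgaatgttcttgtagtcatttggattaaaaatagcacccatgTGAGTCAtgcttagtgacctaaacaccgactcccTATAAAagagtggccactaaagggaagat
Mmp8 (chr9:7558309-7558428): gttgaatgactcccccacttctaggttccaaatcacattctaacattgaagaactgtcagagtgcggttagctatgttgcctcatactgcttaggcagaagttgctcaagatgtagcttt

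In this view Mmp3 and Mmp10 both carry the AP-1 and TATA letters, from 46 and 63 bases before the start for TGAGTCA and from 7 and 29 bases for TATAAA. Mmp3 was at 4.34 FPKM or more in every library, and Mmp10 was at or near 0. Mmp8, the member with the largest fold change, carries none of these letters in the bases shown. Farther from the start, within the bases searched, it has a PEA3 match (CTTCCT, from 220 bases before the start). For Mmp12 a second start in the reference, farther downstream, has TGAGTCA from 44 bases before it. These matches are descriptions of the reference sequence and were not measured here.

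None of the remaining Mmp genes was called. Mmp14, the membrane-type enzyme that activates Mmp2, was 32.2, 25.0 and 16.0 FPKM in the controls and 15.3, 22.6 and 24.5 FPKM after blast. The control library with the lowest value was near the lowest PBLI library, and the 95% interval of the log2 fold change was −0.83 to 0.43. Mmp28 (epilysin), an epithelial enzyme, was below the controls in all PBLI libraries (8.59 ± 0.754 against 6.61 ± 1.08 FPKM, SD, n = 3, adjusted p = 0.264). Mmp11, Mmp15, Mmp16, Mmp17 and Mmp23 had log2 fold changes between −0.43 and −0.13, and their groups overlapped. For Mmp17 the sign turned with quantile normalization.

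No Adamts gene passed the adjusted test by limma, and 11 of the 15 tested had a log2 fold change below 0, beside 10 of the 15 tested Mmp genes. Groups did not overlap for 5 Adamts genes (Adamts5, Adamts6, Adamts8, Adamts12 and Adamts20) and 3 Mmp genes (Mmp2, Mmp12 and Mmp28), all lower, 8 of 34 members against 14.4% of all tested genes. In the upward direction they did not overlap for Mmp3, Mmp8, Mmp19, Timp1 and Timp3, 5 of 34 against 13.3%. At an unadjusted p under 0.05 there were 5 lower Adamts genes of 15 (10% of all tested genes) and no higher one (9.15% of all tested genes), and whether the family differs from other genes was not tested.

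Adamts8, which acts on proteoglycans, read 11.3, 7.12 and 7.47 FPKM in the controls and 4.76, 5.59 and 5.36 FPKM after blast (log2 fold change −0.64 ± 0.19, adjusted p = 0.142). It lies beside Adamts15 on chromosome 9 (chr9:30942562-30963838 and chr9:30899155-30922452), on opposite strands, and Adamts15 had values the other way with overlap, 9.77 ± 2.62 against 13.4 ± 4.22 FPKM (SD, n = 3). Adamts12, which cleaves cartilage oligomeric matrix protein, fell short of the threshold at 4.48, 2.77 and 1.56 FPKM against 0.809, 1.29 and 1.46 FPKM (log2 fold change −0.96 ± 0.34, adjusted p = 0.195). Control 1 was by far the highest library and Control 3 was just above the highest PBLI value.

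Adamts6, Adamts10 and Adamts17 are linked to fibrillin microfibrils. Adamts6 was 1.89, 3.05 and 2.34 FPKM in the controls and 1.15, 1.46 and 0.712 FPKM after blast, with no overlap (log2 fold change −0.87 ± 0.26, adjusted p = 0.139). Adamts17 was 10.7, 7.23 and 2.48 FPKM in the controls against 1.28, 3.90 and 1.41 FPKM, and Control 3 lay below PBLI G4 (log2 fold change −1.37 ± 0.53, adjusted p = 0.226). Adamts10, the most abundant of the 3, was 58.1, 52.9 and 44.7 FPKM against 45.4, 55.3 and 27.1 FPKM, which overlapped (adjusted p = 0.487).

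Adamts20, a versican-cleaving enzyme best known from the skin, was 1.49, 1.05 and 0.699 FPKM in the controls and 0.141, 0.519 and 0.334 FPKM after blast (log2 fold change −0.92 ± 0.29, adjusted p = 0.156). Every PBLI value was below every control value.

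Adamts1, which cleaves aggrecan and versican, had the highest mean over the 6 libraries of the proteases, although Adamts10 was above it in PBLI G3 and G4. It was at 69.8, 71.1 and 50.9 FPKM in the controls and 38.0, 37.4 and 63.9 FPKM after blast. PBLI G3 and G4 lay below the controls and PBLI G5 among them, and the log2 fold change was −0.49 ± 0.23 (adjusted p = 0.290) or −0.74 without PBLI G5 (adjusted p = 0.0559). Its neighbour Adamts5 on chromosome 16 was 3.50 ± 0.102 FPKM in the controls and 2.74 ± 0.439 FPKM in the PBLI group (SD, n = 3, adjusted p = 0.361). The procollagen N-proteinase Adamts2 was 17.98, 13.2 and 9.69 FPKM against 8.85, 9.91 and 14.3 FPKM, and its groups overlapped. Adamts3, Adamts7 and Adamts9 also overlapped between the groups, with log2 fold changes of 0.18, −0.05 and −0.53. With one library left out Adamts3 ranged from 0.06 (without PBLI G5) to 0.30 (without PBLI G4) and Adamts9 from −0.83 (without Control 3) to −0.27 (without Control 1), and the sign for Adamts7 turned with quantile normalization and without Control 1 or PBLI G5.

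Markers of fibroblasts, a main source of Mmp2, Timp2 and several Adamts genes, moved in part with the lower members. Of 7 such genes, 2 were called lower, Col1a2 of type I collagen (log2 fold change −0.85, adjusted p = 0.0283) and the lipofibroblast factor Tcf21 (−0.96, adjusted p = 0.0163). None was called higher, but Pdgfra was above the controls in every PBLI library (log2 fold change 0.48, limma adjusted p = 0.0815). Dcn and Pi16, whose groups overlapped, had log2 fold changes of 0.12 and 0.28. At an unadjusted p under 0.05 by limma, 4 of the 7 were lower and 1 was higher. The summed level of the 7 genes was 344 to 396 FPKM in the controls and 278 to 324 FPKM after blast. Alveolar macrophage markers, which bear on Mmp12, summed to 279 to 468 FPKM and 422 to 527 FPKM with no call among 7, and those of monocytes and interstitial macrophages to 86.2 to 94.9 FPKM and 78.1 to 137 FPKM with none among 6. Sums of alveolar type 2 markers were 8805 to 9755 FPKM in the controls and 11595 to 12391 FPKM after blast, and those of alveolar type 1 markers 915 to 1046 FPKM and 1073 to 1207 FPKM. Both sums, like Timp3, were higher in every PBLI library than in any control library, with no call among 5 genes of either list. Sftpc made up most of the type 2 sum, and the genes of each list did not all move together. Abca3 of type 2 cells and Rtkn2 of type 1 cells had log2 fold changes of −0.13 and −0.30, and the other genes of both lists were above 0. Endothelial sums were 828 to 916 FPKM and 725 to 807 FPKM, with no call. The mesothelial gene Upk3b was at or below 0.0473 FPKM in the controls and 1.83, 0.726 and 0.974 FPKM after blast (adjusted p = 0.0406), and it entered the test only through the PBLI group, where it was high. No other mesothelial, adipocyte, smooth muscle, cardiac, airway or erythroid marker was called. The part of these cells in the results was not tested.

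Of 11 other inhibitors of extracellular proteases, 9 were tested and 1 was called. Slpi, the secretory leukocyte protease inhibitor that blocks neutrophil elastase, rose from 4.71, 4.26 and 4.70 FPKM to 18.5, 15.7 and 10.5 FPKM (log2 fold change 1.57, adjusted p = 0.0163), with PBLI G5 lowest in its group. No gene was called among 6 tested ADAMTS-like genes, led by Adamtsl2 (32.7, 32.4 and 16.4 FPKM against 16.1, 15.3 and 17.1 FPKM), or among 9 ADAM sheddases. Adam10 had the highest mean over the 6 libraries of these (53.1 to 62.0 FPKM in the controls and 44.3 to 58.4 FPKM after blast), although Adam9 and Adam15 were above it in PBLI G5. At an unadjusted p under 0.05 by limma, Adamtsl4 and Adam15 were higher and Adamtsl2 was lower. The log2 fold change was 0.92 for Adamtsl4 (adjusted p = 0.0621) and 0.71 for Adam15 (adjusted p = 0.0956).

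Circular RNAs gave a separate readout of the same genes. The table held 9 circRNAs with a member as host gene (Timp3, Adamts9, Adamts15, Adamts17 and Mmp15) of 3696 in all, and 8 of them had at most 4 junction reads over the 6 libraries. The circRNA of Mmp15, a membrane-type enzyme (mm10, chr8:95365314-95366422, 278 bases, exonic), had 7, 10 and 10 reads in the controls and 8, 3 and 7 reads after blast. The groups overlapped (edgeR log2 fold change −0.84, adjusted p = 0.586). None of the 9 was called by edgeR or by DESeq2 and none had an unadjusted p under 0.05 by edgeR, where over all circRNAs 0% were called in each direction and 0.812% (higher) and 0.487% (lower) had an unadjusted p under 0.05.

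The lncRNA table paired 28 transcripts with 15 of the members, of which 13 were tested and none was called by limma (0% of all tested transcripts were called higher and 0.0295% lower). Only 1 had an unadjusted p under 0.05 (6.51% of all tested transcripts did with lower and 2.73% with higher values), the Adamts8 antisense transcript AK084540. It read 2.79, 1.38 and 1.57 FPKM in the controls and 0.810, 0.992 and 0.535 FPKM after blast (log2 fold change −0.89 ± 0.30, adjusted p = 0.453), below the controls in every PBLI library as was Adamts8 itself. The library kit keeps the strand, but no source used here says whether counting used it.

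Some of these transcripts overlap the exons of a member on its own strand, so fragments may be divided between 2 entries. Adamts14 was 0.0138, 1.04 and 0.0120 FPKM in the controls, and its overlapping transcript uc011xes.1 was 0.595 and 0.831 FPKM in Control 1 and Control 3 and at most 9.13e-05 FPKM in the other libraries. The low and high libraries of one entry were thus the high and low ones of the other within the controls. The Adamts14 difference (log2 fold change 0.98 ± 0.47, limma adjusted p = 0.30) is uncertain, and whether fragments were divided between the 2 entries was not tested. The Adamts6 transcript uc011zeh.1 was 1.81, 1.22 and 1.20 FPKM in the controls and 0.811, 0.753 and 0.852 FPKM after blast, in the direction of the gene. Mmp24, at most 0.0611 FPKM, has an antisense transcript of BC029722 (NR_015528) at 8.86, 11.2 and 11.3 FPKM in the controls and 8.27, 8.51 and 6.80 FPKM after blast (adjusted p = 0.534).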

How the data were processed

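Total RNA depleted of ribosomal RNA was sequenced in 6 lung libraries, 3 per group, each a pool of 2 mice; the p-values measure the spread between pools. The authors trimmed reads with cutadapt (1.9.3), aligned them with hisat2 (2.0.4) to mm10 and made the deposited mRNA values, FPKM per gene, with cuffdiff (2.2.1). Deposited circRNA values are junction read counts that the authors obtained with STAR (2.5.1b) and DCC (0.4.4). Deposited lncRNA values are FPKM per transcript; no source used here names their tool. A further 18 columns of values by library, not used, hold log-scaled circRNA counts and scaled fragments of lncRNAs and mRNAs. Relative depth was read from genes below 0.1 FPKM in both libraries compared, as the most frequent ratio.

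FPKM were tested with limma (3.58.1, R 4.3.3, mean-variance trend) as log2(FPKM + 0.5) over genes that reached 0.5 FPKM in any library, two-sided, without further scaling. A fold change on this scale understates the change of low genes. CircRNA counts were tested with edgeR (4.0.16, TMM, quasi-likelihood), with DESeq2 (1.42.0) as an alternative. P-values were adjusted by Benjamini and Hochberg's method over all features tested. The scripts were tested on simulated data.

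Members and lists were chosen with earlier results of these data known. Values of every library are given for members with an adjusted p under 0.05, an unadjusted p of at most 0.05 or a fold change of at least 2, for all Timp genes and for the most abundant member of each role. Other genes given by library were chosen after their values were seen. A gene of the list of other inhibitors is not reported here. Gene positions come from GENCODE M21 (GRCm38, the assembly mm10) and promoters from RefSeq (GRCm38.p6). Alternatives were other pseudocounts, filters, scalings, sample weights, no trend and leaving out each library.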

Additional observations from a re-analysis of the deposited data

How the results depend on the processing

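The count of 2 higher members became 1 with a pseudocount of 1, with median-of-ratios scaling and with quantile normalization (Mmp8 in each), 0 without a filter on low values and without a trend, and 4 with sample weights, which also gave 3 lower members in place of 0. It was 0 to 2 when one library was left out. At the study's thresholds the 3 higher members ranged from 2 to 5 with one library left out. The 1 lower member became 5 with a pseudocount of 0.1, 5 with the fold as the ratio of mean FPKM (chosen after seeing the data), 0 without a filter and 3 with sample weights, and ranged from 0 to 4 with one library left out. The counts of called circRNAs and lncRNA transcripts were 0 in all settings run. For the circRNAs this says little about stability, since 8 of the 9 had at most 4 junction reads over the 6 libraries.

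Mmp8 kept its direction in all 14 alternatives (log2 fold change 2.61 to 3.81) and was called in 7, and Timp3 (0.57 to 0.93) was called in 4. Among the 34 tested members the sign turned for Mmp14, Mmp17, Timp2, Timp4 and Adamts7. Leaving out one library moved the log2 fold change of 20 of the 34, neither Mmp8 nor Timp3 among them, by over 1.5 times without a change of sign, and turned the sign of 3 more (Mmp14, Timp4 and Adamts7). Mmp14 ranged from −0.47 to 0.024 with one library left out, being 0.0029 without PBLI G3. With quantile normalization Timp2 was −0.034 and Mmp17 0.0016. Adamts7 was 0.09 with quantile normalization and 0.16 with sample weights, and ranged from −0.23 to 0.23 with one library left out. Timp4 was 0.0053 with a pseudocount of 1, 0.0045 with median-of-ratios scaling and 0.13 with quantile normalization, and ranged from −0.23 to 0.24 with one library left out (0.0070 without Control 2 and 0.093 without Control 3). Fits without one library have fewer samples and assume a spread shared over both groups.

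The test of the deposited count columns was not run, since they are not whole-number counts. A count test on fragment numbers recovered from those columns, chosen after seeing the data, was tried and is not reported, since the PBLI columns were mapped to their group for FPKM only. It gave more members past the study's thresholds in both directions. No paired analysis was possible because the PBLI columns carry no replicate number. The design held no pairs to lose, since the paper divided different mice at random between the groups and describes no matching of control and PBLI pools.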
